A study of Mus musculus with 16 samples.

Results

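The genes described here are 36 genes of glycolysis and of the response to low oxygen, a list of named genes chosen for their known function. They cover the oxygen-sensing factors and enzymes, the carriers of glucose and lactate, the enzymes from hexokinase to lactate dehydrogenase, and further genes that are switched on when oxygen is low. The arrays measured 20173 named genes above a filter on dim features, and all 36 were among them, read by 74 array features. Each gene was represented by its brightest feature.

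RNA of mouse lung homogenate, taken at postnatal day 3, was hybridised to 1-colour arrays, 1 array per sample and 4 arrays in each of 4 groups. The groups were wild-type pups in normoxia, wild-type pups in hyperoxia, pups labelled Fgf10+/- in normoxia and pups labelled Fgf10+/- in hyperoxia. Hyperoxia was 85% oxygen in a chamber from postnatal day 0 to day 3, and the label Fgf10+/- marks pups that carry 1 mutated copy of Fgf10, the gene of a fibroblast growth factor of lung mesenchyme. The design asked what high oxygen did in each genotype, what the genotype did in each oxygen level, and whether the response to oxygen differed between genotypes. Whether the 4 samples of a group are pups of different litters is not in the labels, and p-values here cover only the spread among these samples.

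Glycolysis splits glucose into pyruvate and yields ATP without oxygen, and lactate dehydrogenase converts pyruvate to lactate and back. The hypoxia-inducible factors HIF-1 alpha (Hif1a) and HIF-2 alpha (Epas1) are marked for destruction by prolyl hydroxylases when oxygen is present, and when oxygen is low they are stable, bind short DNA elements and raise the transcription of many of these genes. That control acts on the HIF proteins, which an RNA array does not measure. Epas1 is abundant in lung, where endothelial and alveolar type 2 cells express it.

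The 16 arrays had a common median of 4.50 on the deposited log2 scale. The median of their upper quartiles was 6.98, and the highest value was 15.99. Pairs of arrays within a group correlated at 0.974 to 0.983. The surfactant gene Sftpc, which defines alveolar type 2 cells, read 15.97 to 15.99 in all 16 arrays. Fgf10 itself did not pass as lower under its label at either oxygen level. The brightest of its 10 features read 7.24 to 8.14 in wild-type normoxia and 7.88 to 8.66 in normoxia arrays labelled Fgf10+/-. In hyperoxia it read 7.64 to 8.07 against 7.39 to 7.96. The genotype difference was 0.48 (SE 0.20, adjusted p = 0.334) in normoxia and -0.21 (SE 0.20, adjusted p = 0.835) in hyperoxia. In pups labelled Fgf10+/- the gene was lower in hyperoxia than in normoxia (log2 -0.64, SE 0.20, adjusted p = 0.0347 in limma). The sources used here do not place these features relative to the mutated part of the gene, so each direction drawn from the genotype rests on the label alone. One wild-type normoxia array, replicate 4, held skeletal muscle markers at a mean log2 of 8.57, against 4.77 to 5.18 in the other 3 arrays of its group. The same array had the highest mean of 5 brown fat markers, 7.07 against 4.88 to 5.23 in the other 3. Of 5 cardiac markers, the atrial peptide gene Nppa read 10.96 in hyperoxia replicate 4 labelled Fgf10+/- and 4.48 to 6.26 in the other 15 arrays, while Myl7 and Tnni3 were highest in wild-type normoxia replicate 1.

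High oxygen went with higher RNA of the glucose carriers and of many glycolytic enzymes in both genotypes. In wild-type pups 10 of the 36 genes rose, 1 fell and 25 did not pass the test, where 10.3% of all tested genes rose and 8.74% fell. In pups labelled Fgf10+/- 15 rose, 1 fell and 20 did not pass, where 13% of all tested genes rose and 10.7% fell. A gene counts as having risen or fallen at an adjusted p under 0.05 in limma, with Benjamini-Hochberg adjustment over all 20173 genes. The median log2 difference of the 36 genes was 0.28 in wild-type pups and 0.33 in pups labelled Fgf10+/-, beside 0.03 over all genes tested in each. The genes that rose in both genotypes numbered 9, which is 9 of the 10 in wild type and 9 of the 15 in pups labelled Fgf10+/-: Slc2a1, Slc2a3, Aldoa, Tpi1, Gapdh, Pgk1, Eno1, Ldha and Ldhb.

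By role, of the 23 genes of transport, glycolysis and pyruvate use, 10 rose in wild-type pups and 14 in pups labelled Fgf10+/-, with median log2 differences of 0.40 and 0.46. Of the 9 other hypoxia-inducible genes, 0 passed in wild-type pups, and 1 rose and 1 fell in pups labelled Fgf10+/-. The 0 holds for the brightest feature of each gene. A second bright feature of Bnip3 passed as higher in wild-type pups (log2 0.40, adjusted p = 0.0169 in limma among kept features). Of the 9 genes, 7 had a positive difference in each genotype, though not all the same 7, with medians of 0.18 and 0.29. Over all 20173 tested genes 10577 and 10705 were positive. Of the 4 oxygen-sensing genes, 1 fell in wild-type pups and 0 passed in pups labelled Fgf10+/-, with medians of -0.30 and -0.07. In lists this small, counts of 0 or 1 lie near the shares of all genes given above. This division by role was made with earlier results of these data known, and no difference between roles was tested. Without the array that held muscle RNA, 8 genes rose and 1 fell in wild-type pups. Without hyperoxia replicate 4 labelled Fgf10+/-, 15 rose and 0 fell in pups labelled Fgf10+/-.

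**Figure D1:**
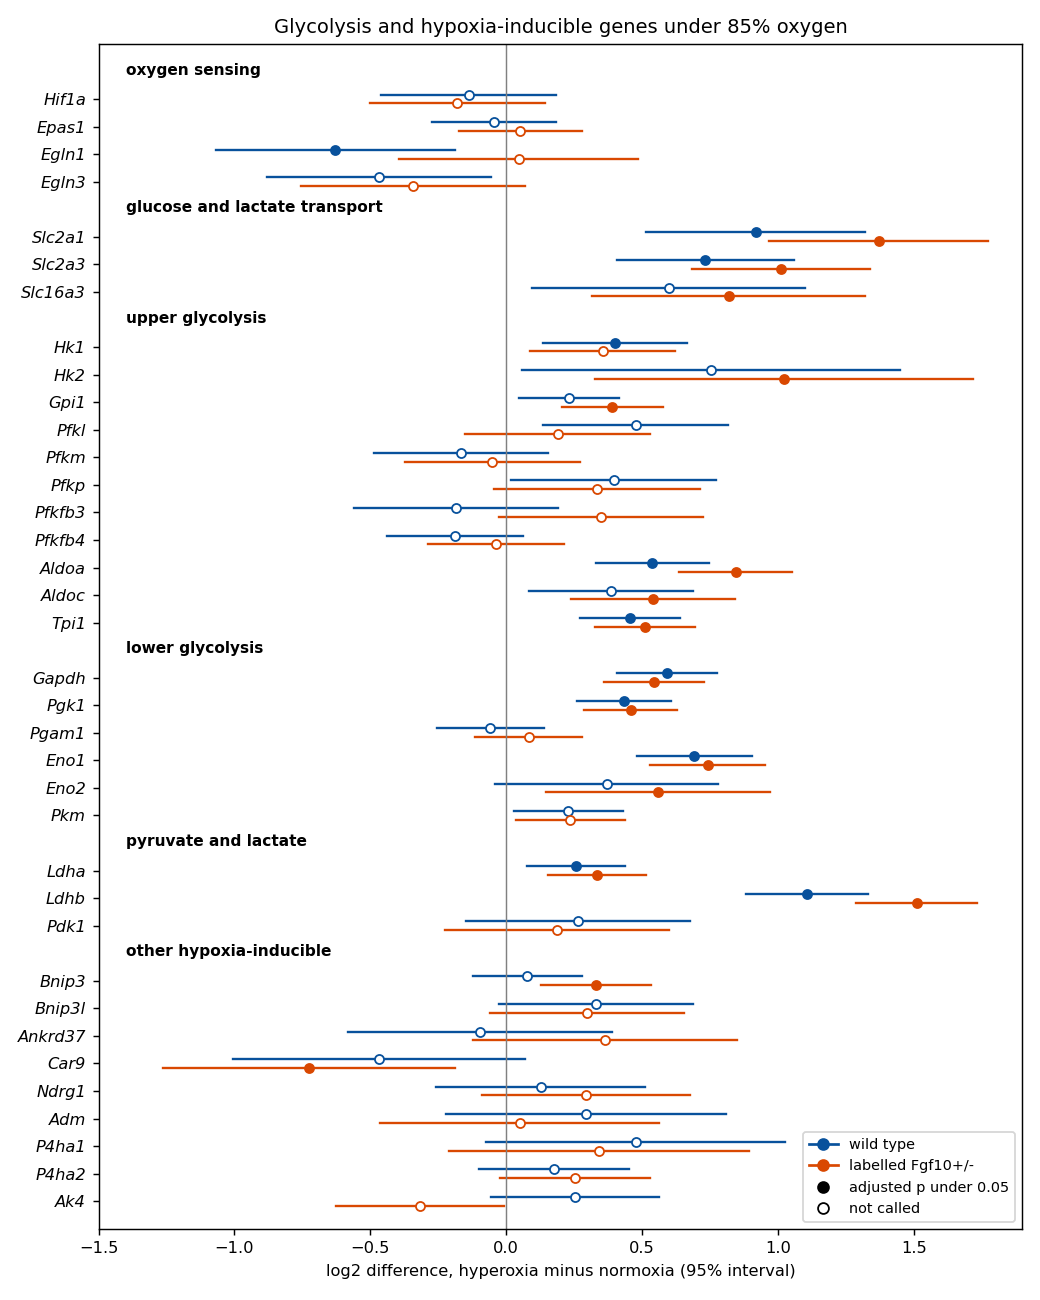
Log2 difference between hyperoxia and normoxia for each of the 36 genes, with its 95% interval, in wild-type pups (blue) and pups labelled Fgf10+/- (orange), 4 arrays per group. Filled points passed an adjusted p of 0.05 in limma; the filled points lie mostly among the transport, glycolysis and lactate genes, 10 of 23 in wild type and 14 of 23 in pups labelled Fgf10+/-.

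The hypoxia-inducible factors bind a core of the letters ACGTG or GCGTG, and the stretches before the start sites of 5 genes are shown so that 4 genes that rose in both genotypes can be set beside 1 that fell. Each line gives the 250 bases before a RefSeq start site on GRCm38.p6, read 5′ to 3′ on the gene's strand, with matches to either motif on either strand in capitals. Slc2a1, Ldhb, Ldha and Tpi1 rose, Tpi1 with no match in its stretch, and Car9 fell in pups labelled Fgf10+/-.
Slc2a1, chr4:119108495-119108744, plus strand: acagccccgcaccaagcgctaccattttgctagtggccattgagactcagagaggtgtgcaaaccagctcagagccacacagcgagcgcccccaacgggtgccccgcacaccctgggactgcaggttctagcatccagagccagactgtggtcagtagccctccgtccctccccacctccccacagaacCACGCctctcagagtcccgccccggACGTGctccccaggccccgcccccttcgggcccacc
Ldhb, chr6:142507958-142508207, minus strand: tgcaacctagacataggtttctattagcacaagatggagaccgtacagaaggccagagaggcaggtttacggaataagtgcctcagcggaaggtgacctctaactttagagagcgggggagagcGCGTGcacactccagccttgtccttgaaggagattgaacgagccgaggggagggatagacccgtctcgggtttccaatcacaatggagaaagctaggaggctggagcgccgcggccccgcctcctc
Ldha, chr7:46845554-46845803, plus strand: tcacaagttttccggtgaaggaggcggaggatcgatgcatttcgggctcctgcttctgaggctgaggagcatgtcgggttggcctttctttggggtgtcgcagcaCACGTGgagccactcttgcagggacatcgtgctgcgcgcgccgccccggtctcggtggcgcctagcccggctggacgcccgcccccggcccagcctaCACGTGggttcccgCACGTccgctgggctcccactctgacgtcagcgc
Tpi1, chr6:124814159-124814408, minus strand: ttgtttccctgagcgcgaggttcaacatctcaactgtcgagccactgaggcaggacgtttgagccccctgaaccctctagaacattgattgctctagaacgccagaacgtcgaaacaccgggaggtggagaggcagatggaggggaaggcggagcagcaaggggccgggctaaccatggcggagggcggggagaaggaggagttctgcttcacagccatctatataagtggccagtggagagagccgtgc
Car9, chr4:43506776-43507025, plus strand: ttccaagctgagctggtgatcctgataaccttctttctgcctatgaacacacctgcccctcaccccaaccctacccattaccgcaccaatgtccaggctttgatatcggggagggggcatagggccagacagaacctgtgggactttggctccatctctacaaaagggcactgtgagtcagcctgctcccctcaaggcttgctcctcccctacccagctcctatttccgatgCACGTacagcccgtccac

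Matches were common throughout the list, whatever the genes did. The windows searched ran from 250 bases before to 50 bases after each start, and matches that overlapped were counted as 1. Of the 32 genes with a window, 29 (90.6%) held a match, beside 46.7% of 27025 genes in the whole table. The matches were found in 7 of 8 genes that rose in both genotypes, in 5 of 7 that rose in 1 genotype and in 17 of 17 that rose in neither. The motifs hold a CG pair, and the windows of the list held a median of 21 CG pairs against 7 in all windows, so the base composition differs as well. A match describes letters in the window and not a bound site. Epas1, Slc2a3, Bnip3l and Ndrg1 had no window in the table.

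Of the 4 oxygen-sensing genes 0 rose, and 1 fell in wild-type pups. Hif1a read between 7.84 and 8.55 over the 16 arrays, and its differences in hyperoxia were -0.14 (95% interval -0.46 to 0.18) in wild-type pups and -0.18 (-0.50 to 0.14) in pups labelled Fgf10+/-. Epas1 read between 14.69 and 15.17, with differences of -0.05 (-0.27 to 0.18) and 0.05 (-0.17 to 0.28). The arrays of all 4 groups overlapped for both genes. A second, dim feature of Hif1a, with a mean of 3.7 that lies under the array median, read 0.76 in wild-type pups (adjusted p = 0.0938 among kept features) and -0.86 in pups labelled Fgf10+/-, where it passed as lower (0.0498).

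Egln1 codes for PHD2, the main prolyl hydroxylase that marks the HIF proteins. In wild-type pups it read 5.80, 5.41, 5.28 and 4.98 in normoxia and 4.60, 4.83, 4.73 and 4.80 in hyperoxia, and in pups labelled Fgf10+/- 4.54, 4.17, 4.89 and 4.88 in normoxia and 4.70, 4.18, 4.87 and 4.92 in hyperoxia. Every wild-type hyperoxia array lay under every wild-type normoxia array, while the groups labelled Fgf10+/- overlapped. The gene fell 1.55-fold in wild-type pups (log2 -0.63, SE 0.21, adjusted p = 0.0455) and differed by 0.05 (SE 0.21, adjusted p = 0.905) in pups labelled Fgf10+/-. The feature is dim, close to the array median, and its call was lost when any 1 of the 8 arrays was left out other than wild-type normoxia replicate 4, with adjusted p up to 0.13, and under the replicate block. Egln3, the hydroxylase PHD3 and itself a hypoxia-inducible gene, had differences of -0.47 (adjusted p = 0.11) and -0.34 (adjusted p = 0.233) and passed in neither genotype.

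Both glucose carriers rose. Slc2a1 codes for GLUT1, the carrier of basal glucose uptake, and its wild-type arrays read 8.23, 8.43, 8.43 and 7.87 in normoxia and 9.19, 9.40, 9.08 and 8.97 in hyperoxia. In pups labelled Fgf10+/- they read 8.24, 7.71, 7.92 and 7.30 in normoxia and 9.45, 9.0, 9.07 and 9.15 in hyperoxia. In each genotype all 4 hyperoxia arrays were above all 4 normoxia arrays. The rise was 1.89-fold in wild-type pups (log2 0.92, SE 0.19, adjusted p = 0.00346) and 2.59-fold in pups labelled Fgf10+/- (log2 1.37, SE 0.19, adjusted p = 0.000145).

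Slc2a3 codes for GLUT3, a carrier of high affinity. It read 6.42, 6.31, 6.33 and 6.08 in wild-type normoxia and 7.24, 6.57, 7.27 and 6.99 in hyperoxia, and 6.27, 6.09, 6.44 and 6.19 in normoxia and 7.39, 7.10, 7.11 and 7.44 in hyperoxia in pups labelled Fgf10+/-. Again no hyperoxia array overlapped the normoxia arrays of its genotype. It rose 1.66-fold in wild-type pups (log2 0.73, SE 0.15, adjusted p = 0.00372) and 2.02-fold in pups labelled Fgf10+/- (log2 1.01, SE 0.15, adjusted p = 0.000273). Slc16a3 codes for MCT4, which exports lactate. It read 8.62, 8.48, 8.27 and 8.47 in wild-type normoxia and 9.07, 9.16, 8.99 and 9.01 in hyperoxia, without overlap, and 8.80, 7.98, 7.86 and 7.72 in normoxia and 9.53, 8.65, 8.99 and 8.47 in hyperoxia in pups labelled Fgf10+/-, where normoxia replicate 1 overlapped the hyperoxia arrays. It rose 1.76-fold in pups labelled Fgf10+/- (log2 0.82, SE 0.23, adjusted p = 0.0198), and the wild-type difference of 0.60 did not pass (adjusted p = 0.0939). The call in pups labelled Fgf10+/- was lost without normoxia replicate 2, 3 or 4 or hyperoxia replicate 1, with adjusted p up to 0.0651. In wild-type pups the difference passed when only those 2 groups were fitted (adjusted p = 0.00821) and under the replicate block (0.043).

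**Figure D2:**
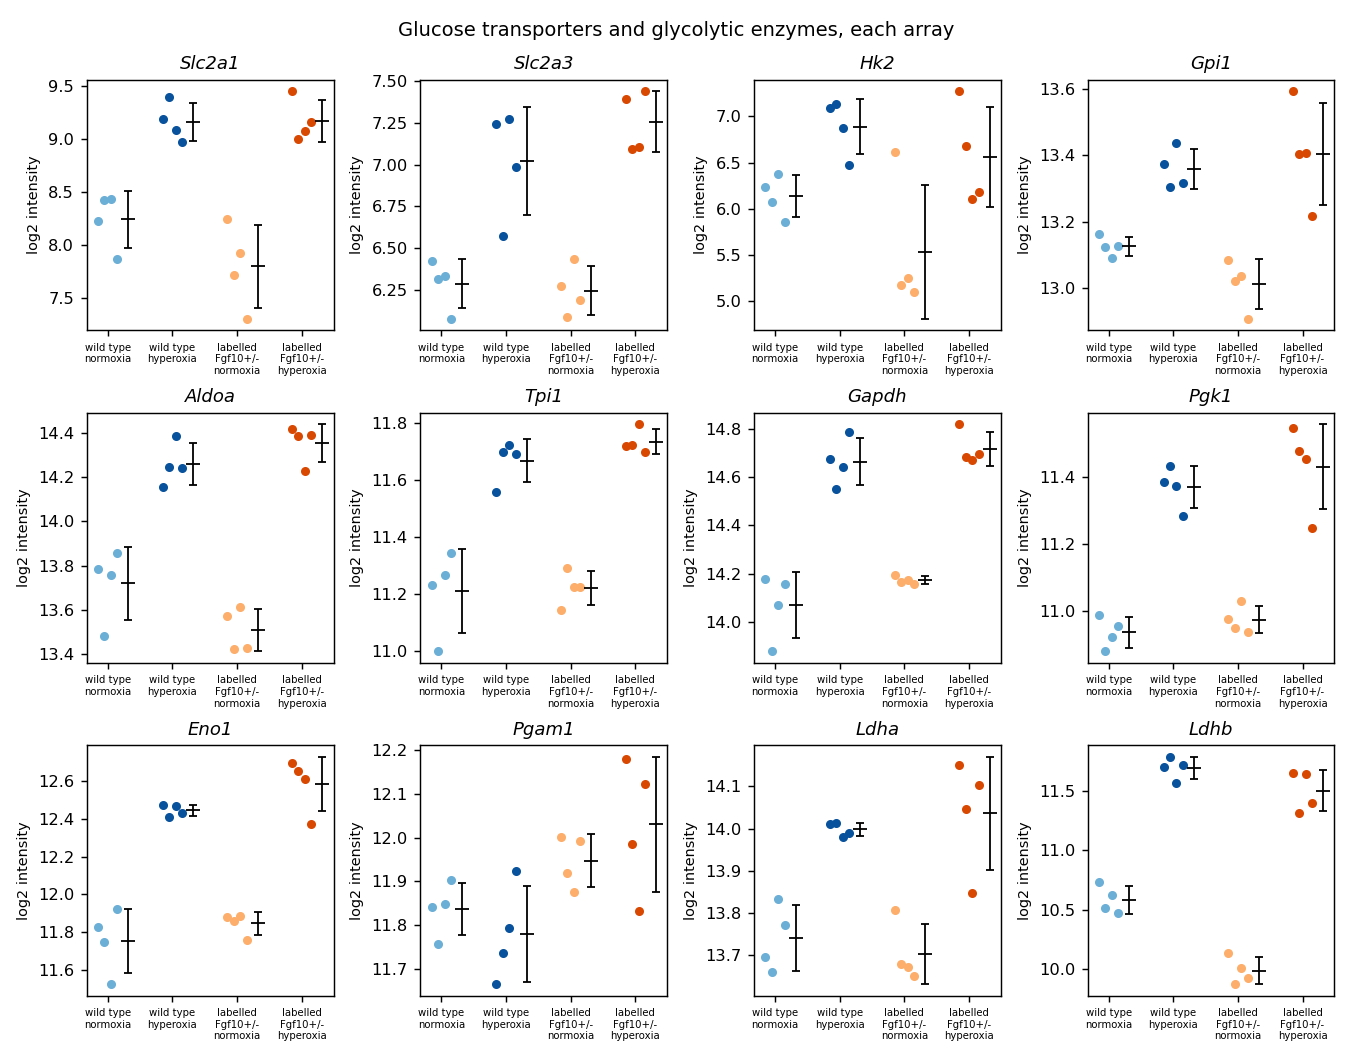
Deposited log2 intensity of 12 transport, glycolysis and lactate genes in each of the 16 arrays (points), with the mean and SD of each group beside them (black); the vertical axis differs between panels. For Slc2a1, Slc2a3, Aldoa, Tpi1, Gapdh, Pgk1, Eno1, Ldha and Ldhb the 4 hyperoxia arrays of each genotype lie above its 4 normoxia arrays, and for Pgam1 they overlap.

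Hexokinase phosphorylates glucose as it enters the cell. Hk1, its broadly expressed form, read 13.80, 13.92, 13.51 and 13.52 in wild-type normoxia and 14.12, 14.21, 14.04 and 13.98 in hyperoxia, and 13.74, 14.04, 13.52 and 13.62 in normoxia and 14.10, 13.99, 14.10 and 14.16 in hyperoxia in pups labelled Fgf10+/-. The wild-type groups did not overlap, and the groups labelled Fgf10+/- did. It rose 1.32-fold in wild-type pups (log2 0.40, SE 0.12, adjusted p = 0.0361), and its difference of 0.35 in pups labelled Fgf10+/- just missed the threshold (adjusted p = 0.052). That difference passed with a filter at the 50th percentile (adjusted p = 0.0321), with moderation by signal level (0.0106), under the replicate block (0.0372) and without normoxia replicate 2 (0.0146). A second feature of Hk1, with a mean of 10.24, read 0.51 there and passed (0.0105 among kept features). The wild-type call was lost without normoxia replicate 3 or 4 or hyperoxia replicate 1, 2 or 3, with adjusted p up to 0.103.

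Hk2 is the inducible hexokinase. It read 6.24, 6.07, 6.38 and 5.86 in wild-type normoxia and 7.09, 7.13, 6.87 and 6.47 in hyperoxia. In pups labelled Fgf10+/- it read 6.62, 5.17, 5.25 and 5.11 in normoxia and 7.27, 6.68, 6.11 and 6.18 in hyperoxia. There normoxia replicate 1 stood far above the other 3 and within the hyperoxia range, whereas the wild-type groups did not overlap. The summed level of 6 neutrophil markers was highest in replicate 1 of each of the 4 groups. In normoxia labelled Fgf10+/- its log2 there was 15.16, against 12.67 to 14.13 in the other 3 arrays. In hyperoxia labelled Fgf10+/- it was 14.73, against 13.58 to 13.91. In wild-type pups replicate 1 had 14.49 in normoxia and 14.39 in hyperoxia, and the lowest arrays 12.41 and 13.65. Hk2 in wild-type pups was highest in normoxia replicate 3 and hyperoxia replicate 2, and Slc16a3 in normoxia replicate 1 and hyperoxia replicate 2. None of the 6 markers passed in any comparison, and their part in the values of Hk2 and Slc16a3 was not tested. The rise was 2.03-fold in pups labelled Fgf10+/- (log2 1.02, SE 0.32, adjusted p = 0.0337), and the wild-type difference of 0.75 did not pass (adjusted p = 0.128) except when only those 2 groups were fitted (0.0264) and under the replicate block (0.047). The call in pups labelled Fgf10+/- was lost without normoxia replicate 2, 3 or 4 or hyperoxia replicate 1 or 2, with adjusted p up to 0.107.

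Gpi1, the isomerase that makes fructose 6-phosphate, read 13.16, 13.12, 13.09 and 13.13 in wild-type normoxia and 13.37, 13.31, 13.44 and 13.32 in hyperoxia, and 13.09, 13.02, 13.04 and 12.91 in normoxia and 13.59, 13.40, 13.41 and 13.22 in hyperoxia in pups labelled Fgf10+/-. The groups did not overlap in either genotype. It rose 1.31-fold in pups labelled Fgf10+/- (log2 0.39, SE 0.09, adjusted p = 0.00439), where all 3 of its features passed, and stood at 0.23 (adjusted p = 0.0785) in wild-type pups.

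At the committed step of glycolysis, the phosphofructokinase subunit genes Pfkl, Pfkm and Pfkp did not pass. In wild-type pups their differences were 0.48 (adjusted p = 0.05), -0.17 and 0.40, and in pups labelled Fgf10+/- 0.19, -0.05 and 0.33. Pfkl lay just short of the threshold in wild-type pups, and it passed with 5 of the 9 settings that keep all arrays. Pfkp passed there under the replicate block (adjusted p = 0.04). All 10 features of Pfkm failed the test in both genotypes. Pfkm is a main form in skeletal muscle, and its highest value, 9.43, came from the wild-type normoxia array with muscle RNA; without that array the wild-type difference was -0.05 (SE 0.14, adjusted p = 0.869). Pfkfb3, which makes the activator fructose 2,6-bisphosphate, read 8.20 to 9.19 over all arrays and differed by -0.18 and 0.35.

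Aldolase cleaves the 6-carbon sugar. Aldoa read 13.78, 13.48, 13.76 and 13.86 in wild-type normoxia and 14.16, 14.25, 14.39 and 14.24 in hyperoxia, and 13.57, 13.42, 13.61 and 13.43 in normoxia and 14.42, 14.39, 14.23 and 14.39 in hyperoxia in pups labelled Fgf10+/-. Hyperoxia and normoxia arrays were separate in both genotypes. It rose 1.45-fold (log2 0.54, SE 0.10, adjusted p = 0.0015) in wild-type pups and 1.8-fold (log2 0.84, SE 0.10, adjusted p = 4.04e-05) in pups labelled Fgf10+/-. Aldoc, a second aldolase best known from brain, read 9.36, 9.10, 9.21 and 9.24 in wild-type normoxia and 9.63, 9.60, 9.47 and 9.75 in hyperoxia, and 9.21, 8.49, 8.70 and 8.58 in normoxia and 9.28, 9.33, 9.43 and 9.10 in hyperoxia in pups labelled Fgf10+/-. The wild-type groups did not overlap, and normoxia replicate 1 of the pups labelled Fgf10+/- overlapped their hyperoxia arrays. It rose 1.45-fold in pups labelled Fgf10+/- (log2 0.54, SE 0.14, adjusted p = 0.0118) and stood at 0.38 in wild-type pups (adjusted p = 0.0726).

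Tpi1, triose-phosphate isomerase, read 11.23, 11.0, 11.27 and 11.34 in wild-type normoxia and 11.56, 11.70, 11.72 and 11.69 in hyperoxia, and 11.15, 11.29, 11.23 and 11.22 in normoxia and 11.72, 11.72, 11.80 and 11.70 in hyperoxia in pups labelled Fgf10+/-. The groups were separate in both genotypes. It rose 1.37-fold (log2 0.46, SE 0.09, adjusted p = 0.00198) and 1.43-fold (log2 0.51, SE 0.09, adjusted p = 0.000633). A dimmer feature of Tpi1 read -0.26 in wild-type pups and 0.06 in pups labelled Fgf10+/-, and with the mean of both features the wild-type call was lost.

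In lower glycolysis, which recovers ATP, 3 of 6 genes rose in wild-type pups and 4 of 6 in pups labelled Fgf10+/-. Over all tested genes the shares that rose were 10.3% and 13%. Gapdh, which oxidises glyceraldehyde 3-phosphate and often serves as a reference gene, read 14.18, 13.88, 14.07 and 14.16 in wild-type normoxia and 14.68, 14.55, 14.64 and 14.78 in hyperoxia. In pups labelled Fgf10+/- it read 14.20, 14.16, 14.17 and 14.16 in normoxia and 14.82, 14.68, 14.67 and 14.69 in hyperoxia. All hyperoxia arrays were above all normoxia arrays of either genotype. It rose 1.51-fold (log2 0.59, SE 0.09, adjusted p = 0.000328) in wild-type pups and 1.46-fold (log2 0.54, SE 0.09, adjusted p = 0.000409) in pups labelled Fgf10+/-.

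The next enzyme, the phosphoglycerate kinase Pgk1, read 10.99, 10.88, 10.92 and 10.95 in wild-type normoxia and 11.39, 11.43, 11.37 and 11.28 in hyperoxia, and 10.98, 10.95, 11.03 and 10.94 in normoxia and 11.54, 11.48, 11.45 and 11.25 in hyperoxia in pups labelled Fgf10+/-. The groups were separate in both genotypes. It rose 1.35-fold (log2 0.43, SE 0.08, adjusted p = 0.00176) and 1.37-fold (log2 0.46, SE 0.08, adjusted p = 0.000879). The mutase Pgam1, which follows it, passed in neither genotype, at -0.06 (95% interval -0.26 to 0.14) and 0.08 (-0.11 to 0.28). Within the same arrays the change of Pgk1 exceeded that of Pgam1 by 0.49 (SE 0.09) in wild-type pups and 0.37 (SE 0.11) in pups labelled Fgf10+/-. Two-sided exact permutation p was 0.0286 and 0.0571, and 0.152 for both after adjustment over 16 such comparisons of gene pairs. With 4 arrays against 4 the smallest possible p is 0.0286, and none of the 16 passed.

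Eno1, the broadly expressed enolase, read 11.82, 11.75, 11.52 and 11.92 in wild-type normoxia and 12.47, 12.41, 12.47 and 12.43 in hyperoxia, and 11.88, 11.86, 11.89 and 11.76 in normoxia and 12.70, 12.66, 12.62 and 12.38 in hyperoxia in pups labelled Fgf10+/-. Again the groups were separate. It rose 1.62-fold (log2 0.69, SE 0.10, adjusted p = 0.000276) and 1.67-fold (log2 0.74, SE 0.10, adjusted p = 0.000116), the largest rises of the lower pathway. Eno2, the enolase of neurons and neuroendocrine cells, read 5.52, 5.85, 5.70 and 5.87 in wild-type normoxia and 6.44, 6.56, 5.63 and 5.79 in hyperoxia, and 5.82, 6.18, 5.80 and 5.66 in normoxia and 6.29, 6.30, 6.53 and 6.57 in hyperoxia in pups labelled Fgf10+/-. The wild-type groups overlapped and the others did not. It rose 1.47-fold in pups labelled Fgf10+/- (log2 0.56, SE 0.19, adjusted p = 0.048) and stood at 0.37 in wild-type pups (adjusted p = 0.211). Its call was lost when any 1 of the 8 arrays other than normoxia replicate 2 was left out, with adjusted p up to 0.125, and under the replicate block. Of 5 neuroendocrine markers measured, 1 rose in each genotype, Calca (2.74 and 3.69). The log2 of the markers' summed level ran from 7.63 to 8.04 and from 8.55 to 9.51 in wild-type normoxia and hyperoxia, and from 7.76 to 8.33 and from 9.03 to 9.80 in pups labelled Fgf10+/-; their part in the result was not tested. Pkm, the pyruvate kinase, differed by 0.23 (adjusted p = 0.107) and 0.24 (adjusted p = 0.0848) and did not pass.

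At the end of the pathway, both lactate dehydrogenase subunit genes rose, and the difference between their rises did not pass after adjustment. Ldhb, the subunit that favours the use of lactate, read 10.74, 10.52, 10.62 and 10.47 in wild-type normoxia and 11.70, 11.79, 11.56 and 11.72 in hyperoxia. In pups labelled Fgf10+/- it read 10.14, 9.88, 10.01 and 9.93 in normoxia and 11.65, 11.31, 11.64 and 11.40 in hyperoxia. In normoxia every array labelled Fgf10+/- lay under every wild-type array, and all hyperoxia arrays stood above both. Ldhb rose 2.15-fold in wild-type pups (log2 1.11, SE 0.10, adjusted p = 1.55e-05) and 2.85-fold in pups labelled Fgf10+/- (log2 1.51, SE 0.10, adjusted p = 1.08e-06), the largest difference among the 36 genes in each genotype.

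Ldha, the subunit that favours making lactate and a classical HIF-1 target, read 13.70, 13.66, 13.83 and 13.77 in wild-type normoxia and 14.01, 14.01, 13.98 and 13.99 in hyperoxia, and 13.81, 13.68, 13.67 and 13.65 in normoxia and 14.15, 14.05, 13.85 and 14.10 in hyperoxia in pups labelled Fgf10+/-. The groups did not overlap in either genotype. It rose 1.2-fold (log2 0.26, SE 0.08, adjusted p = 0.0444) and 1.26-fold (log2 0.33, SE 0.08, adjusted p = 0.00953). The wild-type call was lost when any 1 of the 8 arrays other than normoxia replicate 3 was left out, with adjusted p up to 0.116, and under the replicate block. With the mean of its 3 features the wild-type difference was -0.03. Within arrays, Ldhb changed by 0.85 (SE 0.08) more than Ldha in wild-type pups and by 1.18 (SE 0.13) more in pups labelled Fgf10+/-. The exact permutation p was 0.0286 for each, the smallest these arrays allow, and 0.152 after adjustment. Pdk1, the kinase that shuts pyruvate dehydrogenase and a further HIF-1 target, stood at 0.26 and 0.19 and passed in neither genotype.

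Features of the same gene did not always read the same difference. Gapdh had 8 features, of which 4 rose in wild-type pups and 5 in pups labelled Fgf10+/-. The 4 features with a mean log2 above 12.5 read 0.38 to 0.61 in wild-type pups and 0.41 to 0.54 in pups labelled Fgf10+/-, and the 2 dimmest, at means of 10.66 and 9.12, read -0.15 and -0.23 in wild-type pups and -0.01 and 0.03 in pups labelled Fgf10+/-. The dimmer features of Ldha read -0.32 and -0.02 in wild-type pups. Gapdh and several other glycolytic genes have near-identical pseudogenes, and the sources used here do not place the features within the transcripts.

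**Figure D3:**
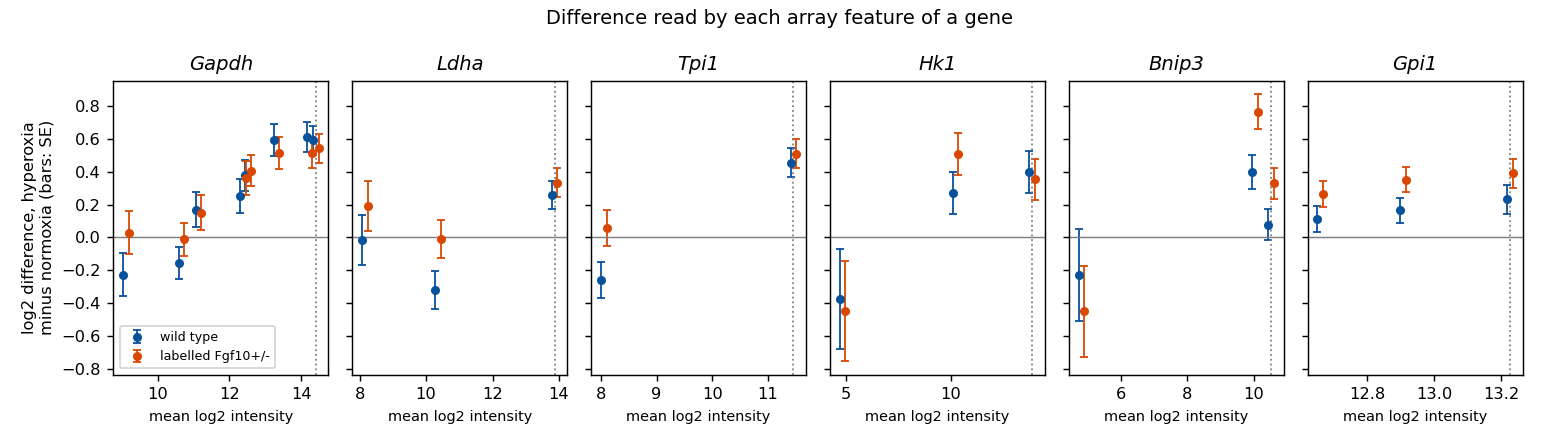
Log2 difference between hyperoxia and normoxia (points, bars are the SE) read by each array feature of 6 genes with several features, against the feature's mean log2 intensity over 16 arrays, in wild-type pups (blue) and pups labelled Fgf10+/- (orange). The dotted line marks the feature that represents the gene; dimmer features of Gapdh, Ldha and Tpi1 lie nearer to or under 0, and the 3 features of Gpi1 lie above 0 in both genotypes.

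Outside glycolysis, 2 of the 9 hypoxia-inducible genes passed in the comparisons of oxygen, both in pups labelled Fgf10+/- and in opposite directions. Bnip3, a mitochondrial protein that promotes mitophagy, read 10.75, 10.55, 10.63 and 10.72 in wild-type normoxia and 10.91, 10.50, 10.75 and 10.80 in hyperoxia. In pups labelled Fgf10+/- it read 10.15, 10.23, 10.12 and 10.18 in normoxia and 10.61, 10.47, 10.49 and 10.43 in hyperoxia. The wild-type groups overlapped, and the groups labelled Fgf10+/- did not. It rose 1.26-fold in pups labelled Fgf10+/- (log2 0.33, SE 0.09, adjusted p = 0.0193) and differed by 0.08 in wild-type pups (adjusted p = 0.639). The call was lost without hyperoxia replicate 1 (adjusted p = 0.0575). A second bright feature of Bnip3, with a mean of 10.02, read 0.40 in wild-type pups and 0.77 in pups labelled Fgf10+/-, and it passed in both.

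Car9, a membrane carbonic anhydrase widely used as a marker of hypoxia, read 4.83, 5.33, 5.35 and 5.65 in wild-type normoxia and 5.03, 4.90, 4.37 and 4.99 in hyperoxia, and 6.15, 4.90, 5.50 and 5.33 in normoxia and 4.73, 5.09, 4.42 and 4.74 in hyperoxia in pups labelled Fgf10+/-. The groups overlapped in both genotypes. It fell 1.65-fold in pups labelled Fgf10+/- (log2 -0.73, SE 0.25, adjusted p = 0.0491) and stood at -0.47 in wild-type pups (adjusted p = 0.226). The feature is dim, near the array median, and the call was lost without normoxia replicate 1, 3 or 4 or hyperoxia replicate 1, 3 or 4, with adjusted p up to 0.14, and under the replicate block.

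The other 7 hypoxia-inducible genes passed in neither genotype in hyperoxia. Their log2 differences ran from -0.10 (Ankrd37) to 0.48 (P4ha1) in wild-type pups and from -0.32 (Ak4) to 0.36 (Ankrd37) in pups labelled Fgf10+/-. Over all arrays Ankrd37, an ankyrin-repeat gene, read 7.40 to 8.63, and Ndrg1, a stress-responsive gene, read 7.89 to 8.91. The collagen prolyl hydroxylase subunits P4ha1 and P4ha2 read 6.01 to 7.46 and 8.35 to 9.05. Bnip3l, a relative of Bnip3 that clears mitochondria from maturing red cells, differed by 0.33 and 0.30. Its lowest and highest normoxia values in pups labelled Fgf10+/-, 11.25 in replicate 1 and 12.15 in replicate 3, came from the arrays with the lowest and highest mean of 4 erythroid markers in that group, 8.57 and 11.81. None of the 4 erythroid markers passed in either genotype, and their part in the Bnip3l values was not tested.

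**Figure D4:**
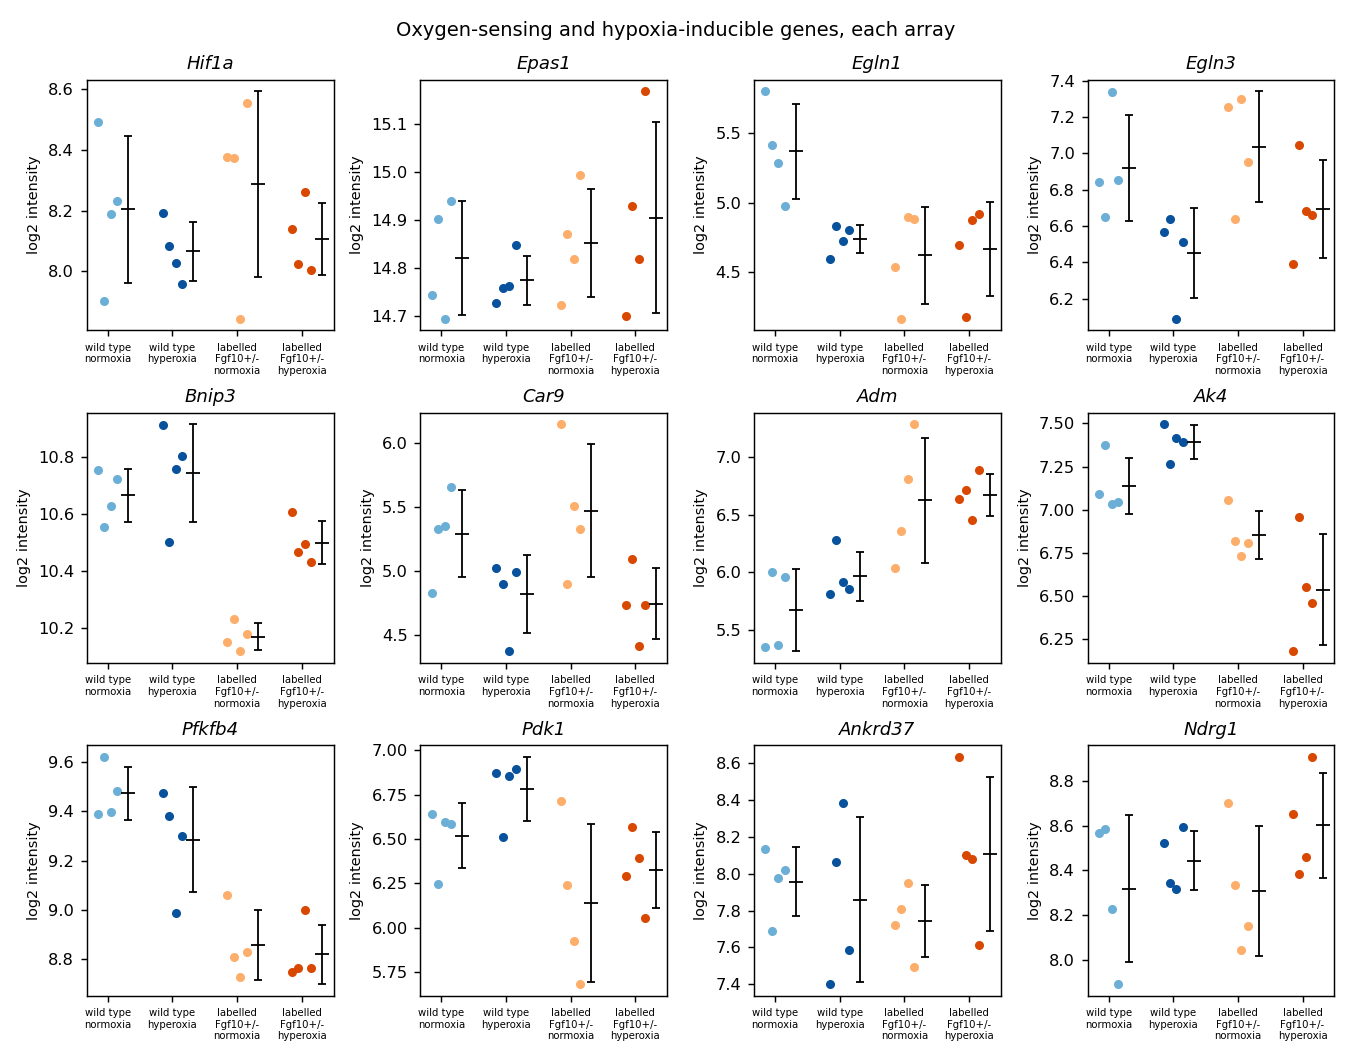
Deposited log2 intensity of 12 oxygen-sensing, hypoxia-inducible and regulatory genes in each of the 16 arrays (points), with the mean and SD of each group beside them (black); the vertical axis differs between panels. Hif1a and Epas1 overlap in all groups, Egln1 is highest in wild-type normoxia, Bnip3 is lowest in normoxia arrays labelled Fgf10+/-, and Adm is higher in arrays labelled Fgf10+/- at both oxygen levels.

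Settings that kept every array ended some of these calls too. Fits to only the groups compared ended the calls of Hk1 in wild-type pups and of Slc16a3, Hk2, Aldoc, Ldha and Car9 in pups labelled Fgf10+/-, and of Ldha in wild-type pups. With another scaling of the arrays (a common 75th percentile or quantile normalization) Hk1 and Ldha in wild-type pups and Eno2 in pups labelled Fgf10+/- no longer passed. The mean of a gene's features ended the calls of Hk1 in wild-type pups and of Ldha and Bnip3 in pups labelled Fgf10+/-. Without a filter on dim features, or with array weights, Eno2 and Car9 no longer passed, nor did either with the mean of features. Moderation by signal level ended the call of Egln1.

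Between genotypes few of the 36 genes differed. In normoxia 3 were lower and 0 higher in pups labelled Fgf10+/-, where 0.719% of all tested genes differed in either direction. In hyperoxia 1 was lower and 0 higher, where 0.411% of all tested genes differed. The median log2 differences of the list were -0.02 and 0.04. These comparisons share their normoxia or hyperoxia arrays with the comparisons of oxygen above.

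The 3 genes lower in normoxia were Ldhb, Pfkfb4 and Bnip3. With the array values given above, Ldhb was 1.51-fold lower (log2 -0.60, SE 0.10, adjusted p = 0.0175) and Bnip3 1.41-fold lower (log2 -0.50, SE 0.09, adjusted p = 0.0275), each without overlap between genotypes. Pfkfb4, a regulator that sets the level of fructose 2,6-bisphosphate, read 9.39, 9.62, 9.40 and 9.48 in wild-type normoxia and 9.06, 8.81, 8.73 and 8.83 in normoxia arrays labelled Fgf10+/-. In hyperoxia it read 9.48, 9.38, 8.99 and 9.30 and 8.75, 8.76, 9.0 and 8.76. The normoxia arrays of the genotypes did not overlap, and the gene did not pass with oxygen in either genotype (-0.19 and -0.04, adjusted p = 0.31 and 0.861). It was 1.53-fold lower in normoxia (log2 -0.62, SE 0.12, adjusted p = 0.0275) and stood at -0.47 in hyperoxia (adjusted p = 0.14).

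All 3 calls were lost when some single arrays were left out or only those 2 groups were fitted, and those of Pfkfb4 and Bnip3 with the mean of their features. For Ldhb the arrays were wild-type replicates 1 and 3 and replicates 2 and 4 labelled Fgf10+/- (adjusted p up to 0.0753). For Pfkfb4 they were wild-type replicates 1, 2 and 3 and replicates 2, 3 and 4 labelled Fgf10+/- (up to 0.0953), and for Bnip3 wild-type replicates 1 and 3 and all 4 arrays labelled Fgf10+/- (up to 0.101). Without the wild-type array that held muscle RNA, 3 genes again differed. Of 6 alveolar type 2 markers, 4 were lower in the same comparison, among them Napsa (-0.94), Abca3 (-0.72) and Lpcat1 (-0.85). Their mean log2 level was 12.79 to 12.88 in wild-type normoxia and 12.20 to 12.33 in normoxia arrays labelled Fgf10+/-. The log2 of their summed level was 16.66 to 16.72 and 16.45 to 16.52, and much of that sum is Sftpc, which lies at the ceiling of the scale. All 5 cardiac markers had a negative difference, and 1 was lower, the troponin Tnnt2 (-0.81), with summed levels of 13.45 to 13.90 and 12.68 to 13.25; Ldhb is the main lactate dehydrogenase subunit of heart. Of 6 alveolar type 1 markers 1 was lower, Ager (-0.54), with summed levels of 14.30 to 14.43 and 13.96 to 14.07. The part of these markers in the 3 results was not tested. In homogenate, fewer cells of a type and less RNA per cell cannot be told apart.

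In hyperoxia the gene that differed was Ak4, a mitochondrial adenylate kinase and HIF-1 target. It read 7.09, 7.38, 7.04 and 7.05 in wild-type normoxia and 7.50, 7.26, 7.42 and 7.39 in hyperoxia, and 7.06, 6.82, 6.73 and 6.81 in normoxia and 6.18, 6.96, 6.55 and 6.46 in hyperoxia in pups labelled Fgf10+/-. In hyperoxia every array labelled Fgf10+/- lay under every wild-type array. The gene was 1.81-fold lower (log2 -0.86, SE 0.14, adjusted p = 0.0214). Of 6 alveolar type 2 markers, 2 were lower in the same comparison, Lamp3 (-0.53) and Abca3 (-0.51). The mean log2 of the 6 was 12.94 to 13.21 in wild-type hyperoxia and 12.70 to 12.77 in hyperoxia arrays labelled Fgf10+/-, and their part in the result was not tested. The call was lost without wild-type replicate 1, 3 or 4 or replicate 3 or 4 labelled Fgf10+/-, with adjusted p up to 0.0804, under the replicate block, with the mean of its features and in the fit to only those 2 groups.

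Adm codes for adrenomedullin, a vasodilator peptide strongly induced by hypoxia, and missed the threshold with the largest genotype difference of the list in normoxia. It read 5.35, 6.01, 5.37 and 5.96 in wild-type normoxia and 6.03, 6.36, 6.81 and 7.29 in normoxia arrays labelled Fgf10+/-, and 5.81, 6.28, 5.92 and 5.86 and 6.64, 6.72, 6.46 and 6.89 in hyperoxia. The genotypes did not overlap at either oxygen level. The differences were 0.95 (SE 0.24, adjusted p = 0.0923) and 0.71 (adjusted p = 0.344). In normoxia it passed with moderation by signal level (adjusted p = 0.0247), with array weights (0.0438) and without replicate 1 labelled Fgf10+/- (0.0369).

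Whether the response to oxygen differed between genotypes was tested directly as an interaction. By limma 0 of the 36 genes passed, where 0% of all tested genes did, and the smallest adjusted p was 0.692. At an unadjusted p under 0.05 there were 5 of the 36 genes, beside 1335 of all 20173 genes tested. Aldoa (0.31), Ldhb (0.40), Egln1 (0.68) and Pfkfb3 (0.53) had the higher signed log2 difference in pups labelled Fgf10+/-, and Ak4 (-0.57) the lower. Aldoa and Ldhb rose in both genotypes. Egln1 differed by -0.63 in wild-type pups and 0.05 in pups labelled Fgf10+/-, Pfkfb3 by -0.18 and 0.35, and Ak4 by 0.25 and -0.32. The count of the 36 genes that passed after adjustment was also 0 with every other setting in which the interaction was fitted. Thus the 6 genes that rose by the test in pups labelled Fgf10+/- alone, Slc16a3, Hk2, Gpi1, Aldoc, Eno2 and Bnip3, are not shown to respond differently. Of the 9 genes that rose in both genotypes, 8 had the larger difference in pups labelled Fgf10+/-, with Gapdh the exception. The same count over all tested genes was not made. More of all tested genes also rose in pups labelled Fgf10+/- (13%) than in wild-type pups (10.3%).

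Further genes of the same pathways were read from lists of known function. Beside these lists and those below, 10.3% of all tested genes rose and 8.74% fell in wild-type pups. In pups labelled Fgf10+/- 13% rose and 10.7% fell. In lists this small, a count of 1 lies near these shares. Among 8 regulators of the HIF pathway, 1 rose and 2 fell in each genotype. Hif3a, a HIF subunit whose short forms restrain the others, rose by 0.75, SE 0.19, in wild-type pups and by 1.88, SE 0.19, in pups labelled Fgf10+/- (adjusted p = 0.0128 and 1.65e-05). Arnt2, a partner subunit, fell (-1.44 and -1.24) to values under the array median. The ubiquitin ligase subunit Vhl, which removes HIF proteins, fell in wild-type pups (log2 -0.54, SE 0.15, adjusted p = 0.0204). Siah2, a ligase that acts on the prolyl hydroxylases, fell in pups labelled Fgf10+/- (log2 -0.57, SE 0.17, adjusted p = 0.0238).

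Of 22 other genes listed as HIF targets, 7 rose and 1 fell in wild-type pups and 9 rose and 0 fell in pups labelled Fgf10+/-. Selenbp1, a selenium-binding protein whose place among HIF targets is less certain, rose most (0.85 and 1.36). Pgm1, which links glycogen to glycolysis, rose by 0.37 and 0.60. Insig2, a regulator of sterol synthesis, rose by 0.38 and 0.45, and Stc2, a secreted glycoprotein, by 0.55 and 0.72. Ddit4, an inhibitor of mTORC1, rose in pups labelled Fgf10+/- (log2 0.97, SE 0.16, adjusted p = 0.000566). The collagen crosslinking enzyme Loxl2 fell in wild-type pups (log2 -0.60, SE 0.14, adjusted p = 0.00728) and was higher in pups labelled Fgf10+/- than in wild-type pups in hyperoxia (log2 0.85, SE 0.14, adjusted p = 0.0199). Vegfa, the endothelial growth factor, is named here after its values were seen: it rose in pups labelled Fgf10+/- (log2 0.46, SE 0.10, adjusted p = 0.00475) and stood at 0.12 in wild-type pups (adjusted p = 0.471).

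Other isoforms of glycolytic genes moved as well. Of 13 measured, 3 rose in wild-type pups and 5 in pups labelled Fgf10+/-, and 0 fell in either. Hkdc1, a hexokinase-like enzyme, rose by 1.34, SE 0.18, and 1.73, SE 0.18. The monocarboxylate carrier Slc16a7 rose by 1.09 and 0.97. Tigar, a p53 target that lowers fructose 2,6-bisphosphate, rose by 0.82 and 1.16. The muscle enolase Eno3 rose in pups labelled Fgf10+/- (0.49, adjusted p = 0.0408); its highest value, 10.38, was in the wild-type normoxia array with muscle RNA.

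Routes that branch from glycolysis were read as well. Of all tested genes 10.3% rose in wild-type pups and 13% in pups labelled Fgf10+/-, so a rise of 1 gene in these lists lies near that share. Of 8 genes of gluconeogenesis and glycogen use, 1 rose in each genotype, the pyruvate carboxylase Pcx (1.07 and 1.5). Of 7 pentose phosphate genes, 2 rose and 1 fell in each genotype. The dehydrogenase Pgd, which yields NADPH, rose in both (0.72 and 0.85). Rpe rose (0.56) and Rpia fell (-0.64) in wild-type pups, and H6pd rose (0.37) and the transketolase Tkt fell (-0.53) in pups labelled Fgf10+/-. The lowest Rpe value, 5.69, was in the wild-type normoxia array with muscle RNA, and replicates 1, 2 and 3 of that group read 6.60, 6.50 and 6.63. Of 12 genes of pyruvate import and the pyruvate dehydrogenase complex, 1 rose in wild-type pups, and 4 rose and 2 fell in pups labelled Fgf10+/-. Dlat, a core subunit, rose in both (0.46 and 0.66). The activating phosphatases Pdp1 (0.55) and Pdp2 (0.69) rose in pups labelled Fgf10+/-, and the subunit Dld fell (-0.49).

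**Figure D5:**
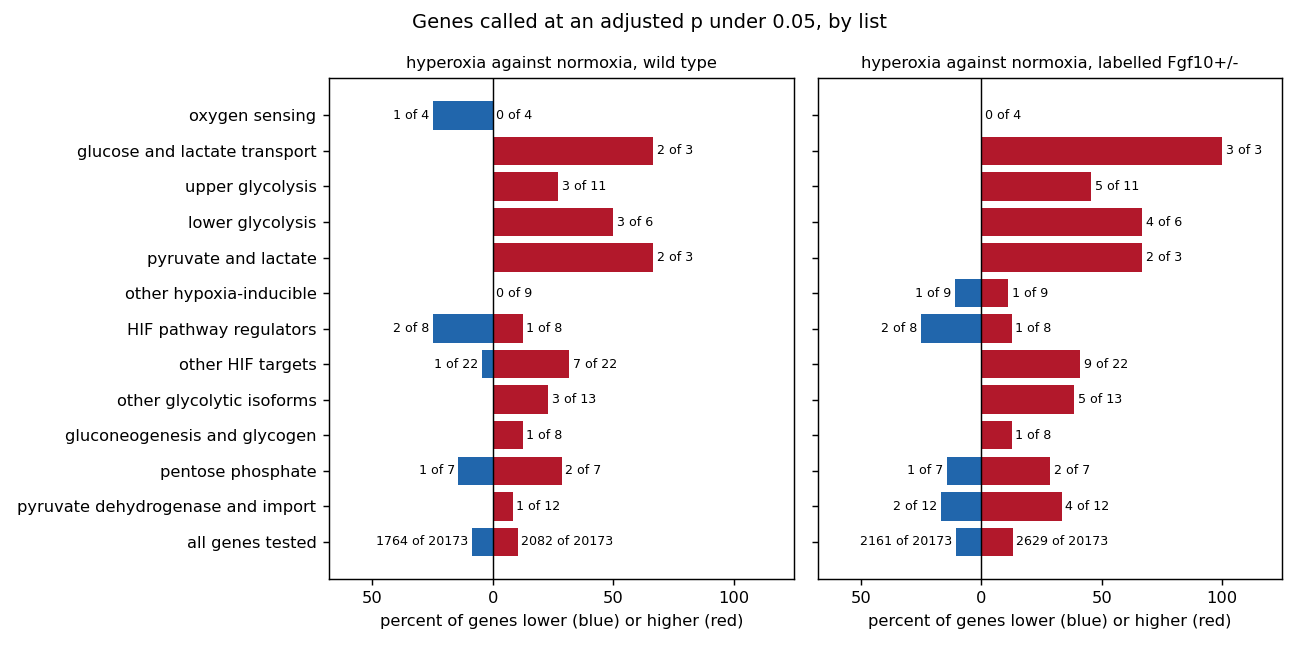
Percent of the genes of each list that rose (red, to the right) or fell (blue, to the left) in hyperoxia, for wild-type pups (left panel) and pups labelled Fgf10+/- (right panel), with counts beside the bars; the first 6 lists are the 36 genes by role and the last bar is all 20173 genes tested. The transport list reaches 2 of 3 and 3 of 3, and the other hypoxia-inducible genes 0 of 9 and 1 of 9.

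Markers of cell types moved with oxygen too. Of all tested genes 10.3% rose and 8.74% fell in wild-type pups, and 13% rose and 10.7% fell in pups labelled Fgf10+/-. Of 6 alveolar type 1 markers, 3 rose in wild-type pups and 4 in pups labelled Fgf10+/-, with Hopx at 1.04 and 1.37. The log2 of their summed level was 14.30 to 14.43 in wild-type normoxia and 14.66 to 14.97 in hyperoxia, and 13.96 to 14.07 and 14.65 to 14.80 in pups labelled Fgf10+/-. Of 6 type 2 markers, 2 rose in wild-type pups and 4 in pups labelled Fgf10+/-, with a mean log2 of 12.94 to 13.21 and 12.70 to 12.77 in hyperoxia. Of 6 mesenchyme markers 3 fell in each genotype, with Pdgfra at -1.45 and -1.49. Their summed level was 15.66 to 16.02 and 15.19 to 15.56 in wild-type pups, and 16.02 to 16.21 and 15.28 to 15.94 in pups labelled Fgf10+/-. Of 6 endothelial markers 2 fell in wild-type pups and 3 in pups labelled Fgf10+/-. Their summed level was 13.94 to 14.17 and 14.03 to 14.43, and 14.00 to 14.04 and 13.87 to 14.37. Much of that sum is Cldn5, at 13.09 to 13.92. The mean log2 of the 6 was 10.36 to 10.57 in wild-type normoxia and 10.12 to 10.39 in hyperoxia. In pups labelled Fgf10+/- it was 10.36 to 10.55 and 10.15 to 10.43. Of 5 cardiac markers 1 fell in wild-type pups, Myl7 (-1.01), and 1 rose in pups labelled Fgf10+/-, Tnnt2 (0.87). Their summed level was 13.45 to 13.90 and 13.13 to 13.40 in wild-type pups, and 12.68 to 13.25 and 12.82 to 14.12 in pups labelled Fgf10+/-. Of 6 macrophage markers 1 rose in each genotype, the scavenger receptor Marco (1.75 and 2.03). Their summed level was 12.28 to 12.60 and 12.48 to 12.55 in wild-type pups, and 12.22 to 12.87 and 12.53 to 12.84 in pups labelled Fgf10+/-. Of 5 brown fat markers 1 rose in pups labelled Fgf10+/-, Cox8b (1.68), with summed levels of 8.56 to 10.52 and 9.52 to 9.84 in wild-type pups and 7.63 to 8.66 and 8.83 to 9.99 in pups labelled Fgf10+/-. No marker was at 0 on this scale, and the part of these cell types in the rises of the glycolytic genes was not tested.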

How the data were processed

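Lung homogenate RNA of 16 mouse pups' samples was labelled with Cy3 and read on 1-colour Agilent arrays, per the labels. The deposited values are log2 intensities made by the authors, 1 column per array. The sources used here do not give the steps that made them, and equal array medians point to arrays set to a common scale. Of 62976 features, 31465 name 1 gene, 31511 name none and 0 name several in the platform annotation. Symbols were updated through RefSeq accessions (29050 features), current symbols (2061) or unique synonyms (349), and 5 kept the annotation's name.

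Features had to exceed their array's 25th percentile (a median of 3.69 over the arrays) on 4 or more of the 16 arrays. The kept feature with the highest mean stood for its gene, and 5971 genes had several. The table held 33 missing values. Differences, standard errors and 95% intervals came from limma 3.58.1 (lmFit and eBayes, R 4.3.3) with a mean per group over all 16 arrays, 12 residual degrees of freedom, and Benjamini-Hochberg adjustment over 20173 genes per comparison. The script was tested on simulated data. Intensities give no counts, so the number of arrays limits the precision. Promoter sequences are from RefSeq on GRCm38.p6.

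Alternatives were the filter, averaging a gene's features, scaling, moderation by signal level, array weights, fits to only the groups compared, a replicate block, and leaving out each array. The genes, their roles and the other lists were chosen with earlier results of these data known. Array values are printed for genes that passed in any comparison, and genes that passed in none are given by differences or ranges, except Adm, whose values were chosen for printing after they were seen. From the further pathway lists up to 4 genes per comparison, and from marker lists up to 3, were named by smallest p.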

Additional observations from a re-analysis of the deposited data

Results flagged for a closer look

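In 144 sets of 4 arrays, 1 per gene and group, 10 held an array whose gap to the nearest of the others, divided by the range of the set, was above Dixon's 95% critical value for 4 values; chance gives about 1 in 20. In wild-type normoxia these were Pfkp in replicate 1 (6.40, nearest 6.90), Pdk1 in replicate 2 (6.25, nearest 6.59), Ak4 in replicate 2 (7.38, nearest 7.09) and Bnip3l in replicate 4 (11.87, nearest 11.58). In wild-type hyperoxia it was Pdk1 in replicate 2 (6.51, nearest 6.85). In normoxia arrays labelled Fgf10+/- it was Hk2 in replicate 1 (6.62, nearest 5.25). In hyperoxia arrays labelled Fgf10+/- they were Pfkfb4 in replicate 3 (9.0, nearest 8.76), Aldoa in replicate 3 (14.23, nearest 14.39), Gapdh in replicate 1 (14.82, nearest 14.69) and P4ha1 in replicate 1 (6.98, nearest 7.18). Aldoa and Gapdh rose in both genotypes in every fit that left out 1 array.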

How the results depend on the processing

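Of 31 differences that passed among the 36 genes, 16 passed under every setting tried and 19 in every fit that left out 1 array of the groups compared. The rises of Slc2a1, Slc2a3, Aldoa, Gapdh, Pgk1, Eno1 and Ldhb in both genotypes were among the 16. With the mean of all kept features per gene, the median difference in hyperoxia was 0.204 in wild-type pups and 0.223 in pups labelled Fgf10+/-, 1 gene differed between genotypes in normoxia and 0 in hyperoxia, and Ldha in wild-type pups reversed to -0.0265. After quantile normalization the median in pups labelled Fgf10+/- was 0.298. With moderation by signal level 5 genes differed between genotypes in normoxia and 2 in hyperoxia, and in fits to only the groups compared 0 and 0, from fewer arrays. With array weights the median of the interaction was 0.0626. The causes of the other shifts were not tested.

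When 1 array was left out, 8 to 10 genes passed in wild-type pups, 11 to 15 in pups labelled Fgf10+/-, 0 to 4 between genotypes in normoxia and 0 to 1 in hyperoxia; the median difference ran from 0.256 to 0.318 in wild-type pups and from 0.0604 to 0.136 for the interaction. With the replicate number as a replicate block 13, 15, 3 and 0 genes passed. In 24 correlations, same-numbered arrays deviated together at -0.0293 to 0.0869, 0 of them over 0.1, so the numbers are not shown to pair samples. Signal over background limits Egln1, Car9 and Arnt2, which lie near the array median.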
